A study of Mus musculus with 6 samples.

Results

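Contractile genes of smooth muscle were examined in epicardial and subepicardial tissue dissected from mouse embryos at stage E16.5. The list is a set of gene names, with no threshold on measured values, and holds Acta2, Tagln, Myh11, Cnn1, Smtn, Lmod1 and Myocd. Of these 7 genes, 6 are among the 14549 genes of the deposited table, and Lmod1 is not listed there. The control group comprised 3 wild-type libraries (numbers 1, 2 and 4). The other group, called dKO as in its labels, comprised 3 libraries (numbers 1, 2 and 3) from embryos of genotype Meis1fl/fl;Meis2fl/fl;WT1-Cre. In these embryos the homeodomain transcription factor genes Meis1 and Meis2 are removed only where WT1-Cre is or was active, so other cells of the tissue keep them. Each library pooled tissue of 2 hearts. The labels do not say whether control embryos carried floxed alleles or Cre.

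Smooth muscle contracts when myosin II motors pull on actin filaments. Acta2 encodes the smooth muscle alpha-actin of the thin filament and Myh11 the smooth muscle myosin heavy chain. Tagln and Cnn1 encode the actin-binding proteins transgelin (SM22-alpha) and calponin 1, Smtn encodes smoothelin, and Lmod1 a nucleator of actin filaments. Myocd encodes myocardin, a coactivator that works through serum response factor (SRF) bound to CArG boxes in the promoters of such genes. The epicardium supplies smooth muscle cells and pericytes to the coronary vessels. Embryonic cardiomyocytes also express Acta2, Tagln, Cnn1 and Myocd, so these genes do not mark smooth muscle alone in a developing heart, while Myh11 is the most restricted of the list.

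Promoter windows from RefSeq (GRCm38.p6), the 250 bases before the RefSeq start, were held for 4 of the 7 genes, Acta2, Cnn1, Smtn and Lmod1, and had no entry for Tagln, Myh11 and Myocd. RefSeq and GENCODE place these starts differently. Of the 250 bases, 217 in Acta2, 37 in Cnn1, 31 in Smtn and 6 in Lmod1 are exonic in GENCODE M21, and the whole Smtn window lies inside the GENCODE gene, downstream of its outermost start. Shown are stretches for Acta2 and Cnn1, whose RNA rose together in the dKO pools, and for Smtn, whose RNA did not pass the test. For Acta2 these are 30 bases around each match, and for Cnn1 and Smtn the part of the window before the first GENCODE exon base. All are written 5′ to 3′ on the strand of the gene, and capitals mark CArG-like and MCAT matches.
Acta2 CArG-like, chr19:34255438-34255467, minus strand: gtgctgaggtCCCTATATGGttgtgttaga
Acta2 CArG-like, chr19:34255388-34255417, minus strand: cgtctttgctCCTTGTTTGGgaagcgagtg
Acta2 MCAT, chr19:34255502-34255531, minus strand: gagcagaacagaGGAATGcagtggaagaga
Cnn1, chr9:22099003-22099215, plus strand: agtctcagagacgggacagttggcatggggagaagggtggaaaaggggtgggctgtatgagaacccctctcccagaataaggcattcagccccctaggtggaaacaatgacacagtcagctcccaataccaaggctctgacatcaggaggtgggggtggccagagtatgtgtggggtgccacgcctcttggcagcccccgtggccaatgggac
Smtn, chr11:3539324-3539542, minus strand: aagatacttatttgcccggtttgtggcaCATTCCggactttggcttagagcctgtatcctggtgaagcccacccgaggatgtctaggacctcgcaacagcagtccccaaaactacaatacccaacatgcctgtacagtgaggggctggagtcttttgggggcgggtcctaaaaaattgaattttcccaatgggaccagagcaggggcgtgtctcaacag
Both strands of the 4 windows were searched for the CArG box, for CArG-like sites in which 1 letter of the A and T core was left free, for the MCAT element GGAATG that TEAD factors bind, and for TGACAG, a core motif of MEIS proteins. The Acta2 window held a pair of CArG-like sites, CCCTATATGG from base -84 to -75 and CCTTGTTTGG from base -34 to -25, counted from the RefSeq start, and 1 MCAT match. All of these Acta2 matches lie within the 217 bases that are exonic in GENCODE, downstream of the GENCODE start. The Smtn window held 1 MCAT match, and the Cnn1 window held a match to none of the motifs. The Lmod1 window held 1 MCAT match (-130 to -125) and the 1 TGACAG match of the 4 windows (-42 to -37, on the opposite strand). Among 32851 RefSeq promoter windows of 250 bases, 1.47% held a CArG box, 8.59% a CArG-like site, 12.6% an MCAT match and 15.9% TGACAG. These are matches of letters in a short window, and sites outside it were not searched.

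All levels below are normalised read counts (reads per 1000000 of a scaled library size). Recovered totals ran from 13146322 to 20635676 reads per library, and mitochondrially encoded genes held 5.99% to 10.4% of the signal in controls and 11.3% to 19.9% in dKO pools. Every log2 change is dKO minus control from limma on log2(value + 1), a scale on which changes of genes at low values come out too small. Adjusted p-values cover all 14549 genes, with a threshold of 0.05. Of the targeted genes, Meis2 was lower in dKO pools (log2 change -0.90, limma adjusted p = 0.0035), while Meis1 did not pass (106, 63.6 and 63.4 in controls against 58.5, 74.1 and 65.0 in dKO pools). Both values cover all exons rather than the deleted ones.

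The contractile list divided into genes that rose and genes that did not pass the test. Acta2, Cnn1 and Myocd rose in the dKO pools, to between 2.59 and 3.62 times the control mean. Tagln, Smtn and Myh11 did not pass, and no member fell. The 3 of 6 measured members that passed, all upward, stand beside 22.0% of all genes that passed in either direction and 9.81% that passed upward. For the same 3 genes the groups did not overlap, as was the case for 40.4% of all genes. The median log2 change of the 6 members was 0.90, against 0.0016 over all genes. It falls in the gap between Tagln (0.35) and Acta2 (1.44), and no member lies near it. The count of 3 higher and 0 lower was the same in each fit that left out 1 library, control 1 included, in the fit without both control 1 and dKO 1, and with edgeR and DESeq2 on recovered reads.

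**Figure D1:**
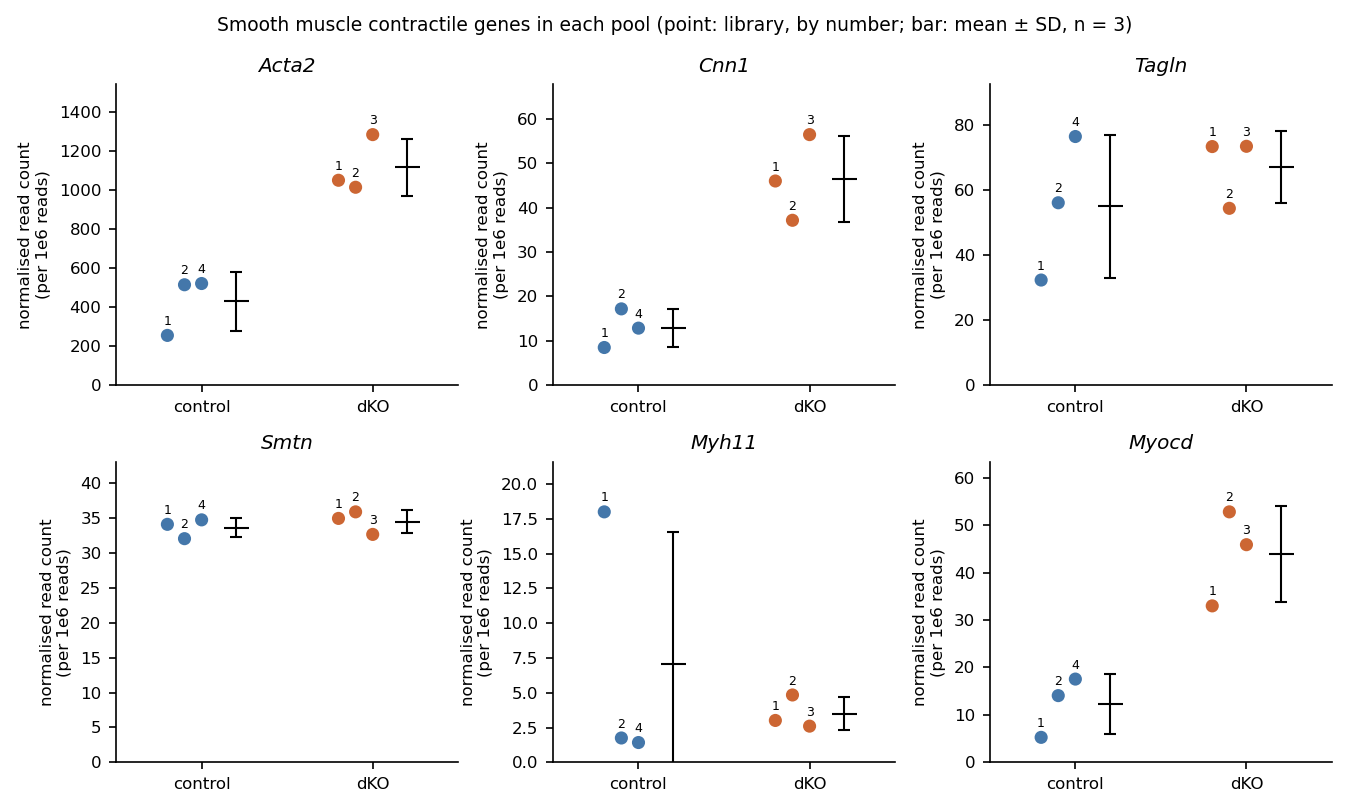
Normalised read count (per 1000000 reads, linear axis from 0) of the 6 measured contractile genes in each control and dKO library, numbered as in the titles, with mean and SD (n = 3). For Acta2, Cnn1 and Myocd every dKO point lies above every control point; for Myh11 control 1 stands at 18.0 while no other library exceeds 4.85.

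Acta2, the thin-filament actin, had the highest counts of the list, also per kilobase. Acta2 (ENSMUSG00000035783, GRCm38 chromosome 19, 34241090 to 34255590) had 255, 515 and 522 in controls 1, 2 and 4 and 1051, 1015 and 1286 in dKO 1, 2 and 3. Every dKO pool exceeded every control pool, and control 1 was at 0.493 times the mean of the other controls. The mean rose from 431 ± 152 to 1117 ± 147 (SD, n = 3 each), a log2 change of 1.44 with an SE of 0.26 (limma adjusted p = 0.0032). Actin genes are alike in sequence, but 0.352% of the 50-base windows of the Acta2 transcript occurred exactly in transcripts of another gene, Actg1 and actin pseudogenes among them. The sources used here do not give the read length.

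Other actin genes gave a frame for this rise. Actc1, the cardiac alpha-actin, had 1391, 3599 and 2739 in controls versus 6682, 6362 and 7230 in dKO pools (log2 change 1.49, limma adjusted p = 0.0103). Acta1, the skeletal alpha-actin, rose at a low level from 8.22 to 17.3 (1.11, limma adjusted p = 0.029). Actg2, the enteric smooth muscle gamma-actin, had 4.79, 5.33 and 10.4 in controls versus 4.07, 5.96 and 8.11 in dKO pools (-0.13, limma adjusted p = 0.82). The groups overlapped for Actg2 and not for Actc1 or Acta1. The cytoplasmic actins Actb (log2 change -0.42) and Actg1 (-0.43) did not pass (limma adjusted p = 0.108 and 0.110), although each was lower in every dKO pool than in every control. Within each library the Acta2 count was 18.4%, 14.3% and 19.0% of the Actc1 count in controls and 15.7%, 16.0% and 17.8% in dKO pools, so this ratio overlapped between the groups. The log2 ratio of Acta2 to Actg2 did not overlap, at 5.99 ± 0.52 in controls and 7.58 ± 0.38 in dKO pools (SD, n = 3 each; exact two-sided permutation p = 0.1, the smallest that 3 against 3 libraries allow).

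Calponin 1 rose while its relatives did not pass. Cnn1 (ENSMUSG00000001349, chromosome 9, 22099216 to 22109630) had 8.49, 17.2 and 12.9 in controls 1, 2 and 4 and 46.0, 37.2 and 56.5 in dKO 1, 2 and 3. All dKO pools were higher than all control pools, with control 1 again the lowest. The mean rose from 12.8 ± 4.35 to 46.6 ± 9.67 (SD, n = 3 each; log2 change 1.81, SE 0.25, limma adjusted p = 0.00081). Cnn1 counts rested on 137 to 269 recovered reads per control library and 502 to 1159 per dKO library. The paralogs Cnn2 (101 to 106, log2 change 0.07) and Cnn3 (398 to 353, -0.17), which are not limited to smooth muscle, did not pass. The within-library log2 ratio of Cnn1 to Cnn2 was -3.03 ± 0.46 in controls and -1.21 ± 0.32 in dKO pools, without overlap (SD, n = 3 each; exact permutation p = 0.1).

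Transgelin belongs to the same protein family and gave a different picture. Tagln (ENSMUSG00000032085, chromosome 9, 45929619 to 45936058) had 32.4, 56.2 and 76.6 in controls versus 73.5, 54.5 and 73.6 in dKO pools. The dKO values lay inside the control range, and the spread among controls was wider than that among dKO pools. The log2 change was 0.35 with a 95% interval from -0.24 to 0.95 (limma adjusted p = 0.385), and it was 0.02 without control 1. Opposite-strand genes overlap 67.9% of its exonic bases, mainly Gm48529, which is not listed in the table, and Pcsk7 (17.8, 20.2 and 29.7 in controls, 30.1, 26.5 and 30.4 in dKO pools). The library kit is not stated to keep strand, so part of the Tagln reads may belong to the overlapping genes or the reverse. Its paralog Tagln2, widely expressed, had 236 in controls and 244 in dKO pools (0.06, limma adjusted p = 0.813).

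Smoothelin varied little between libraries. Smtn (ENSMUSG00000020439, chromosome 11, 3517523 to 3540612) had 34.1, 32.0 and 34.7 in controls versus 34.9, 35.8 and 32.6 in dKO pools. The groups overlapped, and the means of 33.6 ± 1.40 and 34.5 ± 1.66 (SD, n = 3 each) differed by less than either SD. The log2 change was 0.04 with a 95% interval from -0.26 to 0.33 (limma adjusted p = 0.878), an interval that lies below the estimate for Acta2, Cnn1 or Myocd. Opposite-strand genes overlap 16.3% of the exonic bases of Smtn.

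The smooth muscle myosin heavy chain was at 4.85 or lower in 5 of the 6 libraries. Myh11 (ENSMUSG00000018830, chromosome 16, 14194535 to 14291372) had 18.0, 1.76 and 1.43 in controls 1, 2 and 4 and 3.01, 4.85 and 2.61 in dKO 1, 2 and 3. Control 1 (291 reads) was 11.3 times the mean of the other controls, which had 27 and 22 reads, and above every dKO pool (48 to 65 reads). With all libraries the log2 change was -0.20 with a 95% interval from -1.67 to 1.28 (limma adjusted p = 0.864). Without control 1 the direction turned, to 0.76 (limma adjusted p = 0.170). A direction for Myh11 therefore could not be given. The non-muscle myosin heavy chains Myh9 (171 to 179, log2 change 0.06) and Myh10 (440 to 475, 0.11) did not pass.

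Lmod1, the smooth muscle leiomodin, is not listed in the table, and no value can be given for it. Its striated muscle paralogs were listed and rose. Lmod2 had 18.2, 46.4 and 37.0 in controls versus 91.6, 87.3 and 109 in dKO pools (log2 change 1.57, limma adjusted p = 0.00326). Lmod3 had 7.87, 12.7 and 14.6 in controls versus 30.3, 29.4 and 29.7 in dKO pools (1.32, limma adjusted p = 0.00244). Control 1 was the lowest library for both, as it was for Acta2, Cnn1, Tagln and Myocd.

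Myocardin, the coactivator of the list, rose by about as much as Cnn1. Myocd (ENSMUSG00000020542, chromosome 11, 65176561 to 65269989) had 5.28, 14.1 and 17.6 in controls 1, 2 and 4 and 33.0, 52.8 and 45.9 in dKO 1, 2 and 3. No dKO pool overlapped the controls, and control 1 was at 0.334 times the mean of the other controls. The mean rose from 12.3 ± 6.33 to 43.9 ± 10.1 (SD, n = 3 each; log2 change 1.87, SE 0.36, limma adjusted p = 0.0047), resting on 85 to 276 reads in controls and 530 to 941 in dKO pools. Srf, its DNA-binding partner, had 24.0, 35.9 and 36.9 in controls versus 78.5, 60.7 and 59.6 in dKO pools, without overlap (log2 change 1.03, SE 0.19, limma adjusted p = 0.00379). The other myocardin family coactivators did not pass: Mkl1 (also called Mrtfa) went from 11.5 to 13.4 (0.20, limma adjusted p = 0.573) and Mkl2 (Mrtfb) from 44.5 to 44.3 (-0.02, limma adjusted p = 0.938).

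Divided by exonic length, so that genes can be compared, the control means per kilobase ran in the order Acta2 (196), Tagln (27.7), Smtn (7.67), Cnn1 (4.70), Myocd (1.92) and Myh11 (0.929). Only Myocd and Myh11 overlapped as neighbours in this order over the control libraries. In dKO pools the order per kilobase was Acta2 (509), Tagln (33.8), Cnn1 (17.0), Smtn (7.87), Myocd (6.83) and Myh11 (0.459), with overlap only between the neighbours Smtn and Myocd. Cnn1 thus stood below Smtn in every control and above it in every dKO pool.

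Changes of members relative to one another were read from within-library log2 ratios, which do not depend on library scaling. Of 15 pairs of measured members, 7 had ratios that did not overlap between the groups. The pairs reuse the same 6 genes, and 40.4% of all genes taken singly did not overlap. The share over all gene pairs was not computed, so nothing is read from this count. Acta2 relative to Tagln was 2.98 ± 0.21 in controls and 4.06 ± 0.20 in dKO pools (SD, n = 3 each). Cnn1 relative to Smtn was -1.44 ± 0.55 in controls and 0.41 ± 0.37 in dKO pools. Acta2, Cnn1 and Myocd moved by more similar amounts: the ratio of Cnn1 to Myocd overlapped (0.18 ± 0.58 and 0.09 ± 0.53), as did that of Acta2 to Myocd (5.23 ± 0.35 and 4.69 ± 0.38), while Acta2 relative to Cnn1 was 5.05 ± 0.25 in controls and 4.60 ± 0.15 in dKO pools, without overlap. Exact permutation p-values for such ratios cannot go below 0.1 here.

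Marker genes of other cell types moved with these changes. For comparison, 9.81% of all genes rose and 12.2% fell. Of 20 cardiomyocyte genes 19 rose and 0 fell, and their summed level was 6229 to 13847 in controls and 32563 to 35194 in dKO pools, with control 1 the lowest control for all 20 of them. None was at 0, and the lowest were Nkx2-5, Tcap and Nppa. Epicardial and mesothelial genes fell (12 of 12, summed level 2105 to 3146 in controls and 296 to 391 in dKO pools), as did 10 of 12 fibroblast genes (30598 to 35385 against 13861 to 17001). Endothelial genes did not pass except Tek, which fell, with summed levels of 1122 to 1709 and 1347 to 1510. Control 1 was also the lowest control for all 10 endothelial genes and for 8 of 11 pericyte genes. It was the lowest control for 3 of 12 fibroblast and 0 of 12 epicardial genes. In bulk RNA, fewer cells of a type and less RNA per cell cannot be told apart, and the part of these markers in the change of contractile genes was not tested.

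**Figure D2:**
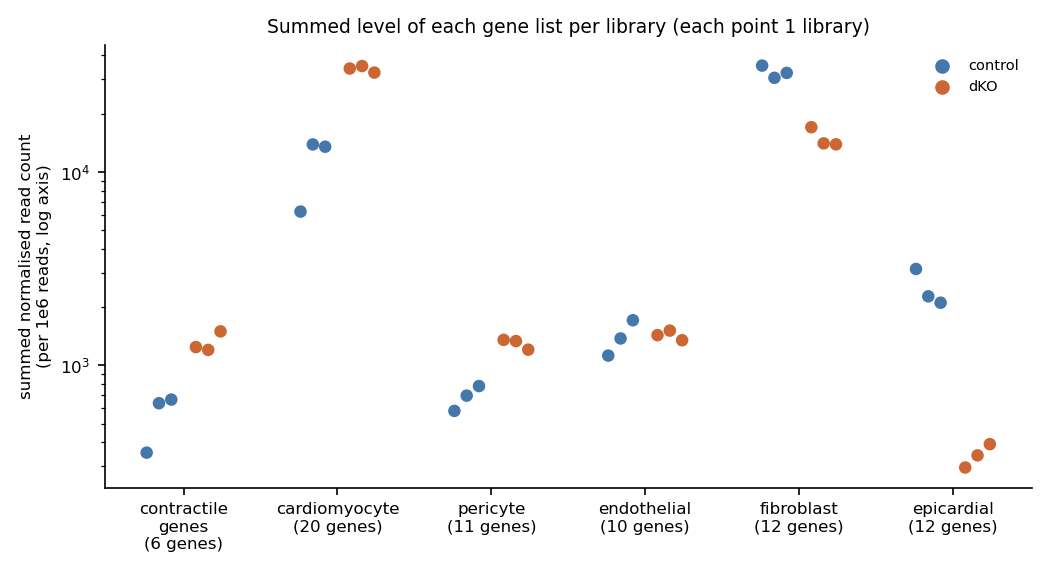
Summed normalised read count (per 1000000 reads, log axis) of each gene list in each control and dKO library. The contractile and cardiomyocyte sums lie higher in all dKO pools, with control 1 lowest in both, and the epicardial and fibroblast sums lie lower. Most of the contractile sum is Acta2 alone, for example 515 of 636 in control 2 and 1051 of 1242 in dKO 1.

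Each member was also set against the mean log2 value of the cardiomyocyte markers of the same library, a reference that itself ran from 6.66 to 7.79 in controls and from 9.05 to 9.32 in dKO pools (log2 of the value). A gene of constant level therefore lies lower against it in dKO pools by construction. On this scale 89.2% of all genes did not overlap between the groups, 89.0% being lower in dKO pools and 0.22% higher. Acta2, Cnn1 and Myocd overlapped between the groups: Acta2 was 1.28 ± 0.05 above the cardiomyocyte mean in controls and 0.96 ± 0.27 in dKO pools, Cnn1 stood at -3.77 ± 0.29 and -3.63 ± 0.32, and Myocd at -3.94 ± 0.30 and -3.73 ± 0.49 (SD, n = 3 each). For Acta2 the overlap rested on dKO 3 (1.25) against control 4 (1.23). The pools dKO 1 (0.71) and dKO 2 (0.93) lay below every control for Acta2. Tagln, at -1.70 ± 0.19 in controls and -3.10 ± 0.20 in dKO pools, and Smtn, at -2.32 ± 0.65 and -4.05 ± 0.15, were lower relative to these markers without overlap (exact permutation p = 0.1 each). Myh11 overlapped as well. With that share of all genes lower, nothing is read from the separation of these 2 of 6 members.

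**Figure D3:**
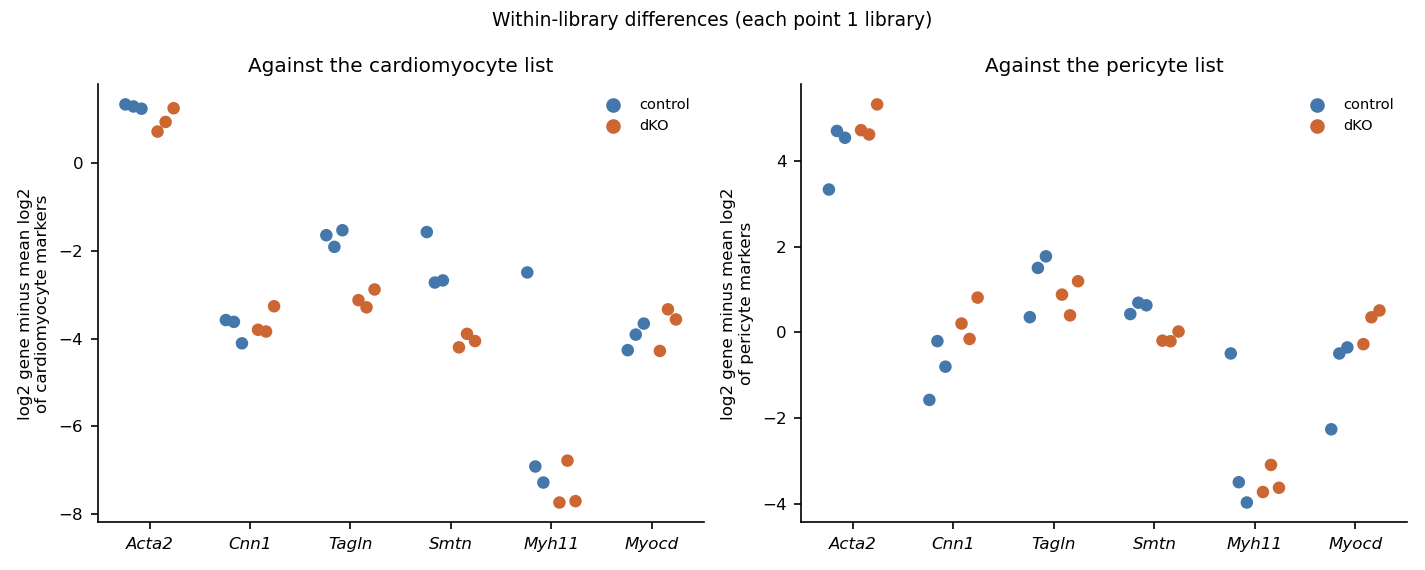
Log2 value of each contractile gene minus the mean log2 value of cardiomyocyte markers (left) or pericyte markers (right) of the same library, for control and dKO libraries. Against cardiomyocyte markers, control and dKO points overlap for Acta2 (through dKO 3 only), Cnn1 and Myocd and separate for Tagln and Smtn.

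Pericyte and general mural genes were higher for 6 of 11 members and lower for 0, with a median log2 change of 0.80. Among all genes the shares were 9.81% higher and 12.2% lower. Rgs5, a regulator of G-protein signalling, had 169, 169 and 172 in controls versus 369, 365 and 285 in dKO pools (log2 change 0.99). Abcc9, a potassium channel subunit, rose from 138 to 328 (1.24), its channel partner Kcnj8 from 21.1 to 39.5 (0.86) and the proteoglycan Cspg4 from 19.1 to 50.5 (1.41). Relative to the mean log2 value of this list, Cnn1 (-0.86 ± 0.69 in controls, 0.28 ± 0.49 in dKO pools) and Myocd (-1.04 ± 1.06 and 0.19 ± 0.42) were higher without overlap, and Smtn (0.58 ± 0.14 and -0.13 ± 0.13) was lower (SD, n = 3 each). The margins upward were narrow: dKO 2 at -0.16 against control 2 at -0.21 for Cnn1, and dKO 1 at -0.28 against control 4 at -0.35 for Myocd. Acta2, Tagln and Myh11 overlapped. The mean of this list also rose, from 4.31 to 4.67 in controls to 5.01 to 5.37 in dKO pools, and on this scale 60.9% of all genes did not overlap, 58.9% being lower in dKO pools and 1.95% higher. The list includes Rgs4, chosen here after its values were seen, which was 20.0 in control 1 but 0.989 and 1.43 in controls 2 and 4 and raises the list mean of that library.

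Of 26 other genes of the contractile apparatus and its light-chain control, 8 rose, 2 fell and 16 did not pass, with a median log2 change of 0.28. Over all genes, 9.81% rose and 12.2% fell. The partner genes that rose were Ppp1r12b, Des, Fhl2, Lmod3, Lmod2, Tpm2, Tpm1 and Myl9. Ppp1r12b, a myosin phosphatase targeting subunit, had 69.7, 70.9 and 61.9 in controls versus 142, 150 and 151 in dKO pools (1.12, limma adjusted p = 0.000127). The intermediate filament gene Des rose from 84.8 to 213 (1.37) and the LIM protein gene Fhl2 from 81.5 to 276 (1.85). Heart muscle also expresses Des, Fhl2, Tpm1, Ppp1r12b, Lmod2 and Lmod3. Synm, the intermediate filament protein synemin, fell from 30.9 to 14.5 (-1.05, limma adjusted p = 0.00244). Mylk, the myosin light-chain kinase gene, named for its role after its values were seen, had 111, 96.2 and 77.6 in controls versus 45.7, 55.5 and 40.3 in dKO pools, without overlap (-0.99, limma adjusted p = 0.00253). Its substrate Myl9 rose by 1.12 on the log2 scale.

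**Figure D4:**
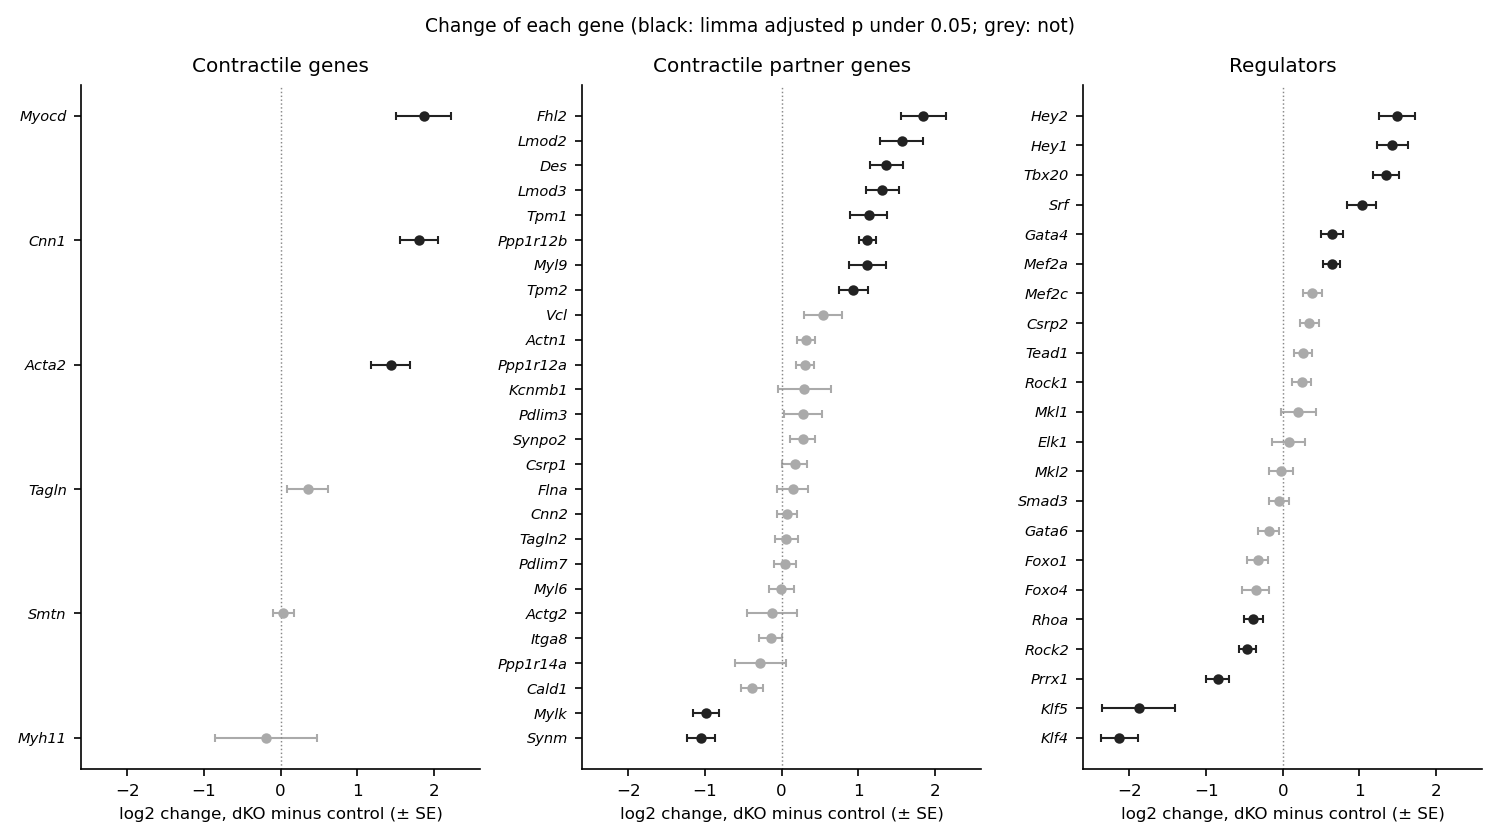
Log2 change (dKO minus control, ± SE of the limma fit) of the contractile genes, their partner genes and their regulators; black points passed at an adjusted p under 0.05 and grey points did not. The points run from -2.13 for Klf4 to 1.87 for Myocd, and most partner genes are grey.

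Of 22 measured regulators of smooth muscle transcription and actin signalling, 6 rose, 5 fell and 11 did not pass, with a median log2 change of 0.14. The shares over all genes were 9.81% higher and 12.2% lower. Besides Srf, the T-box factor gene Tbx20 rose from 249 to 629 (1.35), and the Notch targets Hey1 (6.89 to 20.3, 1.43) and Hey2 (57.7 to 157, 1.50), Gata4 and Mef2a rose. Klf4, known as a repressor of contractile genes in smooth muscle, had 55.6, 69.0 and 59.5 in controls versus 20.2, 11.4 and 9.82 in dKO pools, without overlap (-2.13, SE 0.24, limma adjusted p = 0.00024). Klf5, Prrx1, Rhoa and Rock2 also fell. The number that fell was 2 without dKO 2. Several of the regulators that rose, Tbx20, Hey2, Gata4 and Mef2a among them, are also expressed in cardiomyocytes. Those that fell did so in pools where 12 of 12 epicardial and 10 of 12 fibroblast genes fell, and a link was not tested. Whether the fall of Klf4 bears on the contractile genes was not tested either.

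Of 16 genes of signals that act on mural cells, 3 rose and 8 fell, with a median log2 change of -0.41. These counts stand beside 9.81% of all genes that rose and 12.2% that fell. The endothelin receptor gene Ednra had 37.3, 45.7 and 44.6 in controls versus 68.4, 94.6 and 97.4 in dKO pools (0.999, limma adjusted p = 0.00202), and Pdgfb and its receptor gene Pdgfrb also rose. The TGF-beta receptor gene Tgfbr2, whose pathway induces contractile genes, had 201, 188 and 173 in controls versus 93.0, 86.2 and 116 in dKO pools (-0.93, limma adjusted p = 0.00114), and Tgfbr1, Tgfb3, Edn1, Fgfr1 and Notch2 fell as well. Fgf2 fell from 77.3 to 17.8 (-2.02, limma adjusted p = 7.75e-05) and Pdgfra, a fibroblast marker, from 245 to 132 (-0.88, limma adjusted p = 0.000736).

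The genes whose pattern over the 6 libraries was most like that of a member were taken from 10943 named genes with a mean of at least 5, by Pearson correlation of log2 values, as a description. Acta2 was followed most closely by Trim55 (0.998), Immt (0.997) and Tnni3k (0.996), and Myocd by Hrc (0.999), Efnb3 (0.998) and Foxred1 (0.998). Cnn1 was followed by Rab11fip3 (0.997), Klhdc2 (0.996) and Sms (0.996). Tagln was followed by Phospho2 (0.994), Slc35b2 (0.991) and Tysnd1 (0.985), Smtn by Clasp2 (0.973), Pms2 (0.97) and Safb2 (0.959), and Myh11 by Zfp446 (0.992), Golga2 (0.981) and Samd5 (0.975). A correlation of at least 0.95 was reached by 463 genes with Acta2, 436 with Myocd and 351 with Cnn1, but by 27 with Tagln, 12 with Myh11 and 3 with Smtn. All these correlations share the genotype contrast and the same 6 libraries. Zfp446, Golga2 and Samd5 were, like Myh11, highest in control 1, with Samd5 at 43.9 there against 11.9 to 17.9 elsewhere. Smtn itself ran only from 32.0 to 35.8, so its matches follow small differences.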

How the data were processed

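The submitters' processing notes name cutadapt, RSEM 1.3.1 and the build GRCm38; annotation release and normalization are not stated there. Values in the deposited table are a normalised signal per gene (14549 genes, 146 of them without a symbol). All 87294 values equalled whole reads plus 0.5 per 1000000 of a scaled library size, within 0.01 reads (100% of values). In every library this scaled size matched the recovered total times the trimmed mean of M-values (TMM) factor from edgeR. The factors ran from 0.878 in dKO 1 to 1.08 in control 1. Groups were compared with limma 3.58.1 (R 4.3.3; variance trend) on log2(value + 1), two-sided, with Benjamini-Hochberg adjustment over all genes. A filter at 1 in 3 libraries removed no gene. edgeR 4.0.16 and DESeq2 1.42.0 on recovered reads were alternatives. Library titles share the numbers 1 and 2 between groups, and no label pairs them. Replicates are pools, so p-values measure spread between pools. Members and lists were chosen with earlier results of these data known. Exonic lengths and overlaps came from GENCODE M21. The functions were tested on simulated reads. All 7 members were named; from other lists up to 4 genes with the smallest p were given with values, and close paralogs, Srf, Mkl1 and Mkl2 whatever their values.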

Additional observations from a re-analysis of the deposited data

How the results depend on the processing

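The 3 members that rose kept their direction and their call under all 16 alternatives: the log2 change ran from 1.10 to 1.61 for Acta2, 1.54 to 2.03 for Cnn1 and 1.40 to 2.18 for Myocd. Smtn (0.0022 to 0.097) did not pass in any. Among the 16, the fit with no filter equals the main fit, because the main filter removed no gene. A filter at 5 left the log2 changes of Acta2, Cnn1, Myocd and Smtn unchanged. Myh11 ran from -0.72 to 0.76 in the fits without 1 library, the highest without control 1, turned to 0.83 without control 1 and dKO 1 and was -1.03 with edgeR (limma or edgeR adjusted p from 0.133 to 0.972). It has no value with a filter at 5, and DESeq2 gave it no adjusted p. Tagln turned to -0.051 without control 1 and dKO 1. With the title number as a replicate block, which leaves 1 residual degree of freedom, 3 members rose and 0 fell, 5 of the contractile partner genes rose in place of 8, and 2 regulators fell in place of 5. No label pairs the libraries, so the numbers were not taken as pairs. Deviations from the group means correlated at -0.24 and -0.26 for the same-numbered libraries and at -0.22 for control 4 with dKO 3. With 3 libraries per group such deviations are tied to one another, so these correlations cannot decide on pairing. The regulators that fell numbered 3 with no variance trend and 2 to 4 in the fits without 1 library, the lowest without dKO 2. Over all genes, in fits added after the data were seen, 1427 rose, against 580 with the block, 905 without dKO 2 and 881 without dKO 3. Likewise 1778 fell, against 780 with the block. Low reads limit Myh11, at 22 to 65 reads outside control 1.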

Other observations

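Tropomodulins, which cap the pointed ends of actin filaments and are related to leiomodins, changed in both directions. Tmod1, the form of heart muscle, had 37.9, 114 and 89.2 in controls versus 222, 228 and 228 in dKO pools (log2 change 1.62, limma adjusted p = 0.00529). Tmod2 fell from 17.5 to 6.58 (-1.27) and the widely expressed Tmod3 from 160 to 118 (-0.43). Tmod4 fell from 4.39 to 0.293 (-2.04), a low level throughout. Other genes overlap 32.6% of the exonic bases of Tmod1.

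Besides Myh11, the pericyte-list genes Rgs4 and Vtn were highest in control 1, at 20.0 and 3.24, against 0.989 and 0.670 in control 2 and 1.43 and 0.730 in control 4. Both were chosen after their values were seen. Most of that list went the other way: control 1 was the lowest control for 8 of its 11 genes. The summed level of the list was 581 in control 1 against 697 and 781 in controls 2 and 4.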
